A study of Mus musculus with 16 samples.

Results

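The killer cell lectin-like receptor genes examined here are *Klrg1*, *Klrd1*, *Klrc1*, *Klrc2*, *Klrk1*, *Klre1*, *Klrb1c*, *Klra7*, *Klrb1f* and *Klri2*. They were chosen by name, as the 10 rows of the deposited gene table that carry these symbols, of 55450 genes in all. The RNA came from CD4+ and CD8+ tumor-infiltrating lymphocytes (TILs) of mice that carried s.c. B16F10 melanomas, a transplantable mouse tumor line. Tumors grew in WT mice (C57BL/6J in the study's methods) and in *Sirt2*-/- mice (B6.129-Sirt2tm1.1Fwa/J), which lack the deacetylase SIRT2 in every cell of the body, and the study asked how loss of SIRT2 changes events downstream of the TCR. Each of the 4 groups, CD4+ WT, CD4+ *Sirt2*-/-, CD8+ WT and CD8+ *Sirt2*-/-, had 4 libraries, 16 in all. The study's methods give the age of its mice as 7 to 8 weeks and describe TILs purified on CD3ε beads. How CD4+ and CD8+ cells were parted before sequencing is not given in the sources used here. The labels do not tie a library to an animal, so p-values measure the spread between these libraries only.

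Killer cell lectin-like receptors are C-type lectin-like proteins of the cell surface that were first known on natural killer (NK) cells and are also acquired by activated and memory CD8+ T cells. The inhibitory members carry motifs that recruit phosphatases. The activating receptors encoded by *Klrk1* and *Klrc2* have no signaling motif of their own and pair with the adaptors DAP10 (*Hcst*) or DAP12 (*Tyrobp*). On T cells infiltrating a tumor they are studied as checkpoints and costimulators that act beside the TCR.

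All 10 genes lie on chromosome 6 (GRCm38). *Klrd1*, *Klrc1*, *Klrc2*, *Klrk1*, *Klre1*, *Klri2*, *Klra7*, *Klrb1c* and *Klrb1f* fall within 1.455 Mb, between positions 128778485 and 130233322, the stretch known as the NK gene complex. *Klrg1* (122270596 to 122282882, minus strand) lies 6.496 Mb away from that stretch. Because *Klrc1* and *Klrc2* arose by duplication, parts of their messages are identical, and a 100-base read inside such a part cannot on its own be placed on one gene. Of all 100-base stretches in their annotated transcripts, 14.6% in *Klrc1* and 7.09% in *Klrc2* occur in another gene as well, against 0 in *Klrg1*, *Klrd1*, *Klrk1*, *Klre1*, *Klrb1f* and *Klri2*. The share was 10.8% in *Klrb1c*, with *Klrb1a* and with Gm44511, which overlaps its exons and had no counts, and 1.83% in *Klra7*, with *Klra13-ps*. The longest run that the coding sequences of *Klrc1* and *Klrc2* share has 124 bases (GENCODE mouse release 21 transcripts). It is shown in capitals, with 25 coding bases on either side in lower case, because a read within it does not tell the 2 genes apart.
Klrc1, coding bases 261 to 434: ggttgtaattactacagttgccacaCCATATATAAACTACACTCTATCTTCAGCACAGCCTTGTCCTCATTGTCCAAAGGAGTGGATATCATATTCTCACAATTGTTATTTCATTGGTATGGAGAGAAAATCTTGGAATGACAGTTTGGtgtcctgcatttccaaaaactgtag
Klrc2, coding bases 243 to 416: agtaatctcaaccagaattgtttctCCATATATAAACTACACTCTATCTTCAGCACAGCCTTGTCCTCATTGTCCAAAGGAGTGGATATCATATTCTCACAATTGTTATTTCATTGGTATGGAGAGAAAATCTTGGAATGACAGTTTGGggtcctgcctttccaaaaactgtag
The 2 genes differ on both sides of the run, so reads that reach past it can be placed.

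For 7 of the 10 genes a start site was matched in the RefSeq promoter table (GRCm38.p6), and the 250 bases before it were searched on both strands for short motifs of factors that act in cytotoxic T cells. TGTGGT, the core bound by RUNX factors, was present before *Klrc1*, *Klrc2*, *Klrk1*, *Klre1* and *Klrb1c*, and not before *Klra7* or *Klrb1f*. It occurs in 14.0% of 32851 windows of the same length. That share is per window, whereas a gene counts here if any of its start sites has a match. The second start site of *Klre1* had none, and the windows of the start sites of *Klrc2* overlap. Its longer form TGTGGTT, in 4.4% of windows, was present before *Klrk1* and the first of the start sites of *Klre1*. The T-box motif AGGTGTGA (1.12% of windows) was in none of the 7, its inner letters GGTGTG (16.3%) were in *Klrb1f*, and the ETS motif AGGAAG (29.5%) was before the second start site of *Klre1* and before *Klrb1c*, *Klra7* and *Klrb1f*. A match describes letters and not a bound site. The windows of *Klrc1* and *Klrk1*, among the members of highest level in CD8+ TILs, are shown 5′ to 3′ on the minus strand with TGTGGT, or ACCACA where it lies on the other strand, in capitals.
Klrc1, chr6:129678974-129679223: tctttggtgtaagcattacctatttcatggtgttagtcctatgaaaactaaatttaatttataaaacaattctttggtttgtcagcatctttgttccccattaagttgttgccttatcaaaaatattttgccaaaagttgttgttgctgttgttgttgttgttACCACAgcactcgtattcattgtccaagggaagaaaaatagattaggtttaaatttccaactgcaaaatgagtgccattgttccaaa
Klrk1, chr6:129623865-129624114: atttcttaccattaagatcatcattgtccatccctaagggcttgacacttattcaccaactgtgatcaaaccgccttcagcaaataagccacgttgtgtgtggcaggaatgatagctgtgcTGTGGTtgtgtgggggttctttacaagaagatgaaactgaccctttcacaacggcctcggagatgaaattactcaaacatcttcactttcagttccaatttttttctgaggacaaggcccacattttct
The match begins 87 bases before the start in *Klrc1* and 129 bases before it in *Klrk1*.

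Total counts on genes ranged from 28000949 to 62407851 per library. In 3 libraries few genes were detected: 8169 in CD4+ *Sirt2*-/- replicate 4, 12587 in CD4+ WT replicate 1 and 14411 in CD8+ WT replicate 1, against 17730 to 22138 in the other 13. Tests on the members are therefore given with all libraries and without these 3. Of 9 T lineage markers, 3 were called higher and 2 lower in CD8+ TILs of either genotype, and the defining ones followed the labels. Among all genes tested, 4.89% were called higher and 6.96% lower in WT mice, and 0.918% and 1.32% in *Sirt2*-/- mice. *Cd4* measured 344 to 639 CPM (gene counts scaled by the total count of the library) in CD4+ and 0 to 4.94 CPM in CD8+ libraries, and *Cd8a* measured 0.0357 to 34.6 and 950 to 1251 CPM. *Sirt2* was 6.47 to 12.3 CPM in *Sirt2*-/- libraries, besides 0 in CD4+ *Sirt2*-/- replicate 4, and 32.7 to 81.1 CPM in WT libraries. Of the NK cell markers, *Ncr1*, which encodes NKp46, stayed at or below 3.39 CPM and *Tyrobp* at or below 2.95 CPM in every library. Others of the list were higher: *Itga2* reached 23.7 CPM in CD4+ WT replicate 1. The 11 listed NK cell markers summed to 196 to 297 CPM in CD8+ and 67 to 128 CPM in CD4+ libraries. In these bulk samples fewer cells that express a gene and less RNA of it per cell cannot be told apart.

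**Figure D1:**
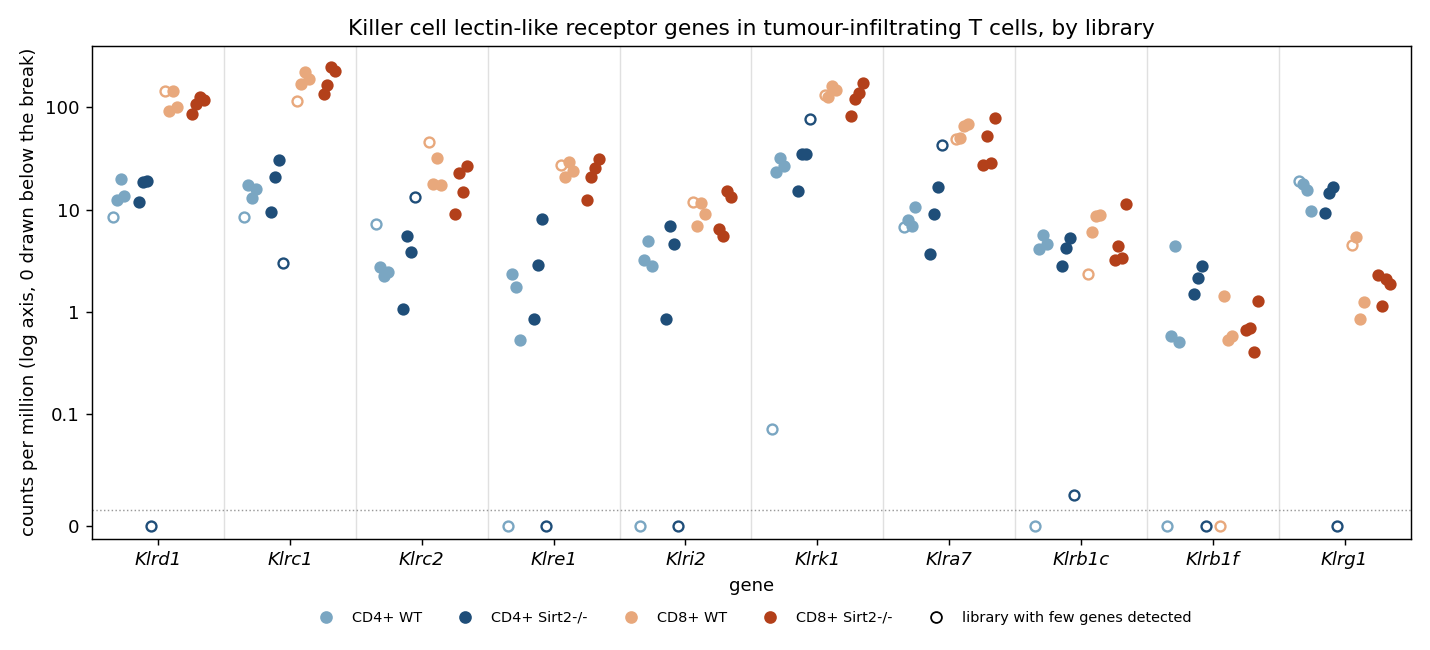
CPM of the 10 receptor genes (log axis, values of 0 drawn below the dotted line) in each library, with 4 points per group and open points for the 3 libraries with few genes detected. Filled CD8+ points lie above filled CD4+ points for *Klrd1*, *Klrc1*, *Klrc2*, *Klre1*, *Klrk1* and *Klra7*, and below them for *Klrg1*.

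The log2 fold change of CD8+ over CD4+ TILs was above 0 for 8 of the 10 receptors in both genotypes, and below 0 for *Klrg1* and *Klrb1f*. Their summed level was 366 to 683 CPM in CD8+ and 49.9 to 143 CPM in CD4+ libraries, and all 10 passed the filter on low counts in every comparison. In WT mice, with edgeR's quasi-likelihood test over 14892 genes, 5 of the 10 members were called higher in CD8+ TILs (*Klrd1*, *Klrc1*, *Klrc2*, *Klre1* and *Klra7*), where 4.89% of all genes tested were called higher, and *Klrg1* was called lower, where 6.96% were. When the 3 libraries were left out, 7 were called higher, with *Klrk1* and *Klri2* added, against 14.9% of 15694 genes, and *Klrg1* lower, against 13.1%. With all libraries of *Sirt2*-/- mice, only *Klrc1* was called higher, against 0.918% of 15787 genes, and 0 lower, against 1.32%. At an unadjusted p under 0.05, 3 members were higher and 0 lower, where 1842 of the 15787 genes passed in either direction. DESeq2 called 2 members higher and 0 lower, and limma-voom with sample quality weights 6 and 2. The genes called in all by these tools are given with the alternatives below. Without CD4+ *Sirt2*-/- replicate 4, 6 members were called higher (*Klrd1*, *Klrc1*, *Klrc2*, *Klrk1*, *Klre1* and *Klra7*), against 13.8% of 16703 genes, and *Klrg1* lower, against 11.6%. The median log2 fold change of the 10 members, CD8+ over CD4+, was 2.71 in WT and 1.59 in *Sirt2*-/- mice with all libraries, and 2.60 and 2.24 without the 3, against medians of −0.02, 0.16, 0.01 and −0.0042 over all genes tested.

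**Figure D2:**
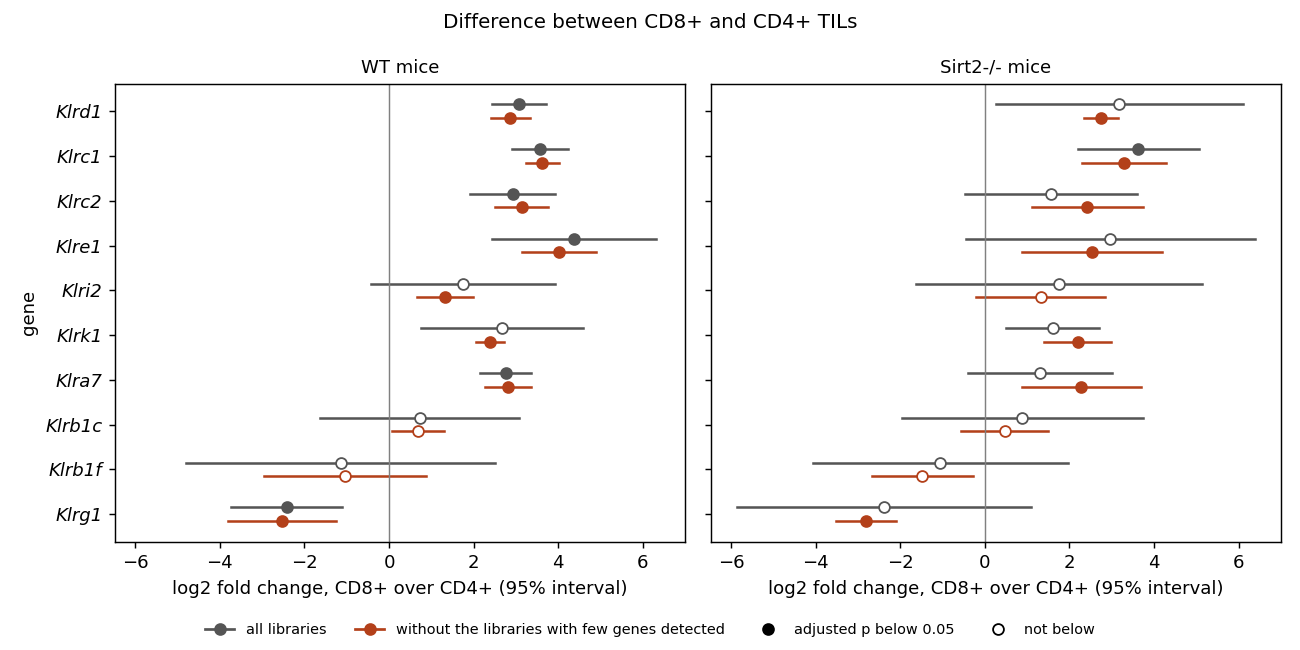
Log2 fold change of each gene in CD8+ over CD4+ TILs with its 95% interval from edgeR, for WT mice (left) and *Sirt2*-/- mice (right), with all libraries (grey) and without the 3 low-detection libraries (red), and filled points where the adjusted p was below 0.05. In the panel of *Sirt2*-/- mice 1 of 10 grey points is filled against 7 of 10 red points.

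The CD94/NKG2 receptors are heterodimers of CD94 with an NKG2 chain and bind the non-classical MHC molecule Qa-1. *Klrd1* (chromosome 6, 129591782 to 129598775), which encodes CD94, measured 146, 92.0, 146 and 100.2 CPM in CD8+ WT replicates 1 to 4 and 8.46, 12.4, 19.7 and 13.5 CPM in CD4+ WT replicates 1 to 4. The values in *Sirt2*-/- mice were 86.8, 109, 127 and 118 CPM in CD8+ and 11.9, 18.8, 19.2 and 0 CPM in CD4+ TILs. Every CD8+ library was thus above every CD4+ library in both genotypes. The 0, on a total of 62407851 counts, has a floor of 0.0481 CPM, which covers counting error only. In that library, CD4+ *Sirt2*-/- replicate 4, 34.9% of the genes abundant in the other CD4+ libraries were at 0 too. The 0 therefore sets no upper limit on *Klrd1*. The log2 fold change was 3.07 in WT mice (SE 0.29, adjusted p = 7.58e-05) and 3.18 in *Sirt2*-/- mice (SE 1.28, adjusted p = 0.355), and 2.87 (SE 0.20) and 2.75 (SE 0.18) without the 3 libraries, with adjusted p of 5.45e-06 and 9.02e-06.

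*Klrc1* (129666015 to 129678973), the inhibitory chain NKG2A, had the highest CPM of the members in every CD8+ library besides CD8+ WT replicate 1. It measured 116, 171, 224 and 189 CPM in CD8+ WT and 135, 164, 249 and 227 CPM in CD8+ *Sirt2*-/- replicates 1 to 4. In CD4+ TILs it measured 8.50, 17.5, 12.9 and 16.1 CPM in WT and 9.47, 20.7, 30.6 and 2.996 CPM in *Sirt2*-/- replicates 1 to 4. The lowest CD8+ library was above the highest CD4+ library in both genotypes. *Klrc1* was the 1 member called with all libraries in both genotypes, with log2 fold changes of 3.58 in WT (SE 0.30, adjusted p = 4.49e-05, and 3.62, adjusted p = 5.33e-07, without the 3 libraries) and 3.63 in *Sirt2*-/- mice (SE 0.63, adjusted p = 0.0256). The call in *Sirt2*-/- mice was lost without any 1 of 6 libraries (adjusted p from 0.0575 to 0.0888, without CD4+ replicate 1 or 2 or any CD8+ replicate), with log2 fold changes of 3.44 to 3.78. Without CD4+ *Sirt2*-/- replicate 4 the value was 3.28 (SE 0.42, adjusted p = 0.00151), and it then held without each other library in turn (highest adjusted p = 0.00458).

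*Klrc2* (129647496 to 129660689), the activating chain NKG2C, which signals through DAP12, was lower than *Klrc1* in CPM in all but 1 library. It measured 46.2, 17.8, 31.7 and 17.5 CPM in CD8+ WT and 9.02, 22.9, 14.9 and 26.8 CPM in CD8+ *Sirt2*-/- replicates 1 to 4. In CD4+ TILs it measured 7.21, 2.72, 2.23 and 2.46 CPM in WT and 1.07, 5.46, 3.88 and 13.2 CPM in *Sirt2*-/- replicates 1 to 4. The groups did not overlap in WT mice, and in *Sirt2*-/- mice CD4+ replicate 4 lay above 1 CD8+ library. The log2 fold change in WT mice was 2.92 (SE 0.46, adjusted p = 0.00206), and 3.14 (SE 0.28, adjusted p = 2.62e-05) without the 3 libraries. The value in *Sirt2*-/- mice was 1.56 (SE 0.89, adjusted p = 0.63) with all libraries and 2.43 (SE 0.57, adjusted p = 0.0157) without CD4+ replicate 4, a value lost from the calls without CD4+ replicate 3 as well (2.52, adjusted p = 0.0532). Counts of *Klrc1* over counts of *Klrc2* ranged from 7.07 to 16.7 in 7 of the 8 CD8+ libraries and were 2.5 in CD8+ WT replicate 1. In CD4+ libraries the ratio ranged from 3.79 to 8.88, besides 1.18 in CD4+ WT replicate 1 and 0.226 in CD4+ *Sirt2*-/- replicate 4, so the 3 lowest ratios were those of the 3 libraries with few genes detected. These ratios use counts and not levels per length, and sequence shared by both genes bears on them. The 124 bases are only the longest shared coding run. In all, 304 of 2080 stretches of 100 bases in *Klrc1* and 438 of 6179 in *Klrc2* occur in another gene, for *Klrc2* in *Klrc1* or *Klrc3*.

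*Klre1* and *Klri2* encode partners of another heterodimer, in which KLRE1 joins KLRI1 or KLRI2. *Klre1* (129577905 to 129585827) measured 27.4, 20.9, 29.2 and 23.7 CPM in CD8+ WT and 12.4, 20.7, 25.5 and 31.6 CPM in CD8+ *Sirt2*-/- replicates 1 to 4, against 0 to 2.31 CPM in CD4+ WT and 0 to 8.14 CPM in CD4+ *Sirt2*-/- libraries. It was higher in every CD8+ library than in every CD4+ library of its genotype. Its log2 fold change in WT mice was 4.38 (SE 0.88, adjusted p = 0.00813), and 4.02 (SE 0.39, adjusted p = 4.62e-05) without the 3 libraries. The same contrast in *Sirt2*-/- mice gave 2.96 (SE 1.498, adjusted p = 0.542) with all libraries and 2.53 (SE 0.70, adjusted p = 0.0358) without CD4+ replicate 4, and this last call was lost when CD4+ replicate 2 (2.35, adjusted p = 0.0701) or CD8+ replicate 3 (2.47, adjusted p = 0.0768) was left out too. *Klri2* (129729041 to 129740484), the activating partner, measured 6.97 to 11.97 CPM in CD8+ WT, 5.46 to 15.4 CPM in CD8+ *Sirt2*-/-, 0 to 4.96 CPM in CD4+ WT and 0 to 6.96 CPM in CD4+ *Sirt2*-/- libraries. Its groups overlapped in *Sirt2*-/- mice and not in WT mice. Its log2 fold change in WT mice was 1.75 (SE 0.99, adjusted p = 0.321) with all libraries and 1.33 (SE 0.30, adjusted p = 0.00759) without the 3 (1.43, adjusted p = 0.0153, without CD4+ WT replicate 1 alone), and it did not pass in *Sirt2*-/- mice with either set (1.76 and 1.33, adjusted p = 0.859 and 0.197).

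*Klrk1* (129610323 to 129623864) encodes NKG2D, an activating receptor that CD8+ T cells use as a costimulator and that binds stress-induced ligands. It measured 133, 128, 162 and 147 CPM in CD8+ WT and 82.9, 121, 138 and 173 CPM in CD8+ *Sirt2*-/- replicates 1 to 4. In CD4+ TILs it measured 0.0714, 23.6, 31.8 and 26.8 CPM in WT and 15.3, 34.9, 35.2 and 77.8 CPM in *Sirt2*-/- replicates 1 to 4. The CD4+ groups thus held their lowest and their highest *Klrk1* value in libraries with few genes detected, and CD8+ libraries were above CD4+ libraries in both genotypes. With all libraries the log2 fold changes of 2.67 in WT (SE 0.87, adjusted p = 0.0748) and 1.61 in *Sirt2*-/- mice (SE 0.48, adjusted p = 0.162) did not pass. They were 2.38 without the 3 libraries (SE 0.15, adjusted p = 2.42e-06) and 2.20 (SE 0.34, adjusted p = 0.00292), and both held without each other library in turn. Leaving out CD4+ WT replicate 1 alone gave 2.35 in WT mice (adjusted p = 7.36e-06).

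*Klra7* (130218605 to 130233322) encodes Ly49G, an inhibitory receptor for classical MHC class I. It measured 48.6, 50.0, 65.4 and 69.1 CPM in CD8+ WT and 27.3, 52.4, 28.7 and 79.5 CPM in CD8+ *Sirt2*-/- replicates 1 to 4. In CD4+ TILs it measured 6.82, 7.89, 6.95 and 10.7 CPM in WT and 3.67, 9.05, 16.6 and 42.7 CPM in *Sirt2*-/- replicates 1 to 4. CD4+ *Sirt2*-/- replicate 4 was the only CD4+ library within the CD8+ range. The log2 fold change was 2.75 in WT mice (SE 0.27, adjusted p = 0.000115), and 2.81 (SE 0.24, adjusted p = 2.08e-05) without the 3 libraries. For *Sirt2*-/- mice it was 1.31 (SE 0.75, adjusted p = 0.636) with all libraries and 2.29 (SE 0.60, adjusted p = 0.0301) without CD4+ replicate 4, and it was 1.91 (adjusted p = 0.0617) when CD4+ replicate 1 was left out as well.

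The NKR-P1 receptors were low and did not pass edgeR's test between cell types in either genotype, with all libraries or without the 3. *Klrb1c* (128778485 to 128789215) encodes NK1.1, the antigen by which NK and NKT cells of C57BL/6 mice are usually identified. It ranged from 2.36 to 8.76 CPM in CD8+ WT, 3.20 to 11.4 CPM in CD8+ *Sirt2*-/-, 0 to 5.61 CPM in CD4+ WT and 0.0160 to 5.31 CPM in CD4+ *Sirt2*-/- libraries, and the cell types overlapped. Its log2 fold change was 0.73 in WT (95% interval −1.63 to 3.08) and 0.89 in *Sirt2*-/- mice (−1.95 to 3.74), and 0.68 (0.06 to 1.303, adjusted p = 0.0991) and 0.47 (−0.55 to 1.498) without the 3 libraries. *Klrb1f* (129045901 to 129057464), which encodes NKR-P1F, measured at most 4.38 CPM in any library and was at 0 in CD4+ *Sirt2*-/- replicate 4, CD4+ WT replicate 1 and CD8+ WT replicate 1. Its log2 fold change was −1.15 in WT (95% interval −4.79 to 2.50) and −1.05 in *Sirt2*-/- mice (−4.07 to 1.96), and −1.05 and −1.48 (adjusted p = 0.43 and 0.0703) without the 3 libraries. In *Sirt2*-/- mice *Klrb1f* was called lower by limma-voom with all libraries (−1.54, adjusted p = 0.0214) and by edgeR when CD8+ replicate 4 was left out besides CD4+ replicate 4 (−1.84, adjusted p = 0.049).

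*Klrg1* was the 1 member called lower in CD8+ than in CD4+ TILs by edgeR, both in WT mice and, without CD4+ replicate 4, in *Sirt2*-/- mice. It encodes an inhibitory receptor for cadherins that marks terminally differentiated effector T cells and a subset of activated regulatory T cells. In CD4+ TILs it measured 18.9, 17.96, 15.5 and 9.70 CPM in WT and 9.18, 14.6, 16.4 and 0 CPM in *Sirt2*-/- replicates 1 to 4. In CD8+ TILs it measured 4.50, 5.35, 0.843 and 1.23 CPM in WT and 2.31, 1.14, 2.09 and 1.87 CPM in *Sirt2*-/- replicates 1 to 4. Besides the 0 in CD4+ *Sirt2*-/- replicate 4, every CD4+ library was above every CD8+ library. The log2 fold change, CD8+ over CD4+, was −2.42 in WT mice (SE 0.59, adjusted p = 0.022), and the call was lost without CD4+ WT replicate 2 or 3 or CD8+ WT replicate 4 (−2.34, −2.43 and −2.17, adjusted p = 0.0637, 0.0568 and 0.0649). In *Sirt2*-/- mice it was −2.39 (SE 1.53, adjusted p = 0.704) with all libraries and −2.81 (SE 0.32, adjusted p = 0.000168) without CD4+ replicate 4. The value in WT mice was −2.53 when the 3 libraries were left out (SE 0.58, adjusted p = 0.00786), and neither of the reduced values lost its call when each other library was left out in turn.

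Markers of regulatory T cells moved with *Klrg1* across the cell types. All 6 of *Foxp3*, *Il2ra*, *Ikzf2*, *Ctla4*, *Il1rl1* and *Ccr8* were called lower in CD8+ than in CD4+ TILs of WT mice, 5 of them in *Sirt2*-/- mice with all libraries and 6 without CD4+ replicate 4. The shares of all genes called lower in the same fits were 6.96%, 1.32% and 11.6%. The summed level of the 6 markers was 1192 to 2788 CPM in CD4+ and 119 to 324 CPM in CD8+ libraries. *Foxp3*, the factor that defines these cells, measured 308 to 991.5 CPM in CD4+ and 0.992 to 6.77 CPM in CD8+ libraries. The part of regulatory T cells in the *Klrg1* difference was not tested.

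When the groups were read by overlap alone, 7 members in WT mice had every CD8+ library above every CD4+ library, where 12.8% of genes did, and *Klrg1* had every CD8+ library below, where 9.48% did. The counts in *Sirt2*-/- mice were 4, where 14.6% of genes did, and 0, where 6.75% did. They were 8 and 1 in WT mice without the 3 libraries (24.2% and 18.7% of genes) and 6 and 2 in *Sirt2*-/- mice (17.7% in each direction).

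The receptors were at a measurable level in CD4+ libraries. Without the 3 libraries, the mean CPM of *Klrd1* in CD4+ TILs was 13.5% of that in CD8+ TILs in WT and 15.1% in *Sirt2*-/- mice. The share was 7.95% and 10.5% for *Klrc1*, 11.1% and 18.9% for *Klrc2*, and 6.21% and 17.6% for *Klre1*. For *Klrk1* it was 18.8% and 22.1%, and for *Klra7* 13.8% and 20.8%. With CD4+ *Sirt2*-/- replicate 4 included, the share in *Sirt2*-/- mice was 38.3% for *Klra7* and 32.1% for *Klrc2*. *Cd8a*, the defining gene of the other cell type, stood at 0.663% and 1.73%, and *Cd8b1* at 2.06% and 2.73%. Among other *Klr* genes, *Klra13-ps* stood at 3.17% and 6.86% and *Klrc3* at 3.34% and 8.57%. *Klra1*, *Klra3* and *Klra6* stood at 14.4%, 11.7% and 7.31% in WT mice. The part of CD8+, NK or γδ cells in the CD4+ values was not tested. For *Klrg1* the CD4+ mean was 581% and 723% of the CD8+ mean.

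Levels of different genes were set side by side per kilobase of the longest coding transcript, without the 3 libraries. In CD8+ WT TILs *Klrd1* stood highest at 123 ± 31.6 CPM per kilobase (SD, n = 3), followed by *Klrc1* (98.2 ± 13.5), *Klra7* (55.7 ± 9.20), *Klrk1* (45.5 ± 5.34), *Klre1* (19.0 ± 3.26) and *Klrc2* (7.95 ± 2.88). *Klrd1* and *Klrc1* overlapped in their ranges over libraries (100.1 to 159 and 86.4 to 113), as did *Klra7* and *Klrk1* (45.3 to 62.6 and 39.9 to 50.6), so neither pair is ordered beyond its spread. *Klrb1c* (2.97), *Klri2* (2.35), *Klrg1* (1.75) and *Klrb1f* (0.497) closed the order. In CD8+ *Sirt2*-/- TILs the first 6 places held the same genes in the same order, with *Klrd1* at 120 ± 18.6 and *Klrc1* at 97.7 ± 26.8 (SD, n = 4). In CD4+ TILs *Klrd1* was again first, at 16.6 ± 4.29 in WT and 18.1 ± 4.45 in *Sirt2*-/- mice (SD, n = 3), where its range overlapped that of *Klrc1*, and *Klrg1* was second in WT (10.2 ± 2.997) and came after *Klrd1* and *Klrc1* in *Sirt2*-/- mice (9.48 ± 2.67). The range of *Klrg1* in CD4+ WT TILs (6.86 to 12.7) overlapped those of *Klrk1* (7.37 to 9.94), *Klrc1* (6.50 to 8.80) and *Klra7* (6.29 to 9.67). Its place there is thus not ordered beyond its spread. With all libraries *Klra7* (16.3) came before *Klrd1* (13.6) in CD4+ *Sirt2*-/- TILs. With all annotated exons of a gene as its length, *Klrc1* (98.2) came before *Klrd1* (88.0) in CD8+ WT TILs. The same held in CD8+ *Sirt2*-/- TILs (97.7 and 85.9).

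**Figure D3:**
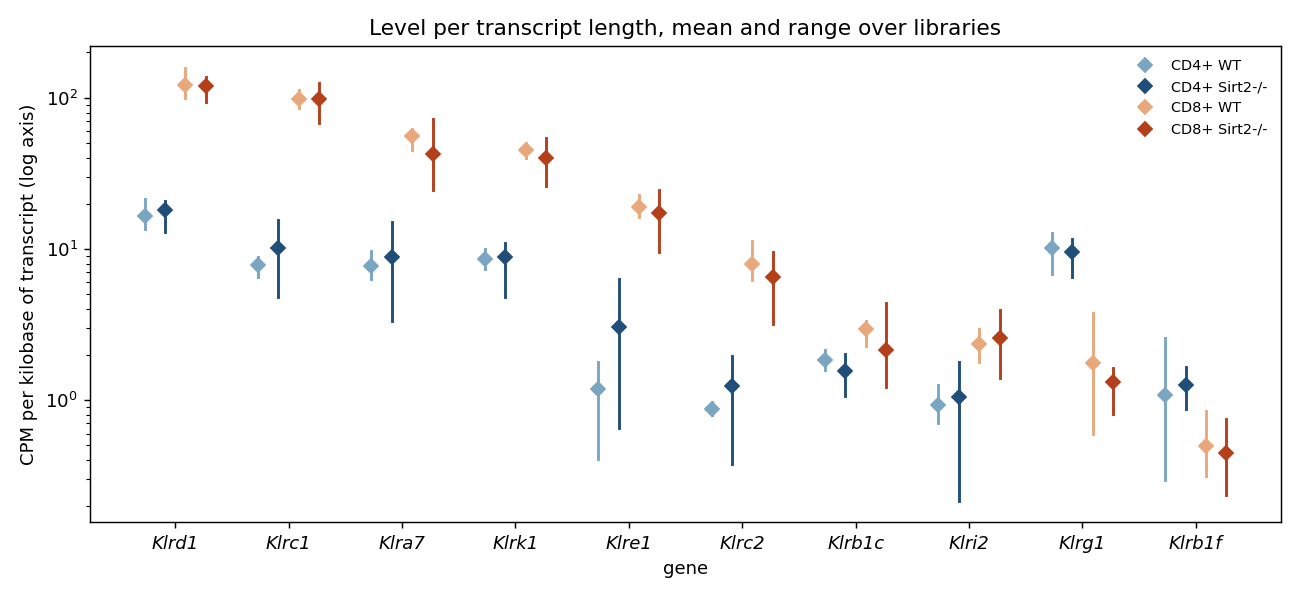
Level of each gene per kilobase of its longest coding transcript (log axis) as the mean (diamonds) and the range (bars) over 3 libraries per group, or 4 in CD8+ *Sirt2*-/- TILs, without the 3 libraries with few genes detected. *Klrd1* is first by mean in all 4 groups, and *Klrg1* moves from ninth in CD8+ WT TILs to second in CD4+ WT TILs. In CD4+ WT TILs its range overlaps those of *Klrk1*, *Klrc1* and *Klra7*.

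Loss of SIRT2 moved none of the 10 receptors past the test in either cell type. In CD4+ TILs 0 of 10 members were called, where 0% of 15070 genes were (190 had an unadjusted p under 0.05, DESeq2 called 7 and limma-voom 4). That edgeR fit did not call the deleted gene *Sirt2* either (log2 fold change −2.6, SE 1.26), so it cannot show that a member was unchanged. Without the CD4+ libraries with few genes detected edgeR did call *Sirt2* (−1.95, SE 0.178, adjusted p = 0.00163). In CD8+ TILs 0 of 10 were called, where 0.00654% of 15302 genes were with all libraries and 0.0439% of 15943 without CD8+ WT replicate 1. In both cell types 0 of 10 members had an unadjusted p under 0.05, and DESeq2 and limma-voom called 0 as well. The 4 *Sirt2*-/- libraries overlapped the 4 WT libraries for all 10 members in both cell types, where 2.81% of genes in CD4+ and 2.93% in CD8+ TILs did not overlap. They overlapped for all 10 without the 3 libraries too, where 10.4% and 5.46% of genes did not. In CD8+ TILs the log2 fold changes, *Sirt2*-/- over WT, ranged from −0.64 (*Klrg1*) to 0.27 (*Klrb1f*), and the 95% intervals of *Klrd1* (−0.47 to 0.25), *Klrk1* (−0.52 to 0.27) and *Klrc1* (−0.31 to 0.65) were the narrowest. The intervals of *Klrg1* (−2.01 to 0.72), *Klrb1f* (−2.01 to 2.55) and *Klrb1c* (−1.29 to 0.92) were wider. *Klrc2* had a log2 fold change of −0.60 (−1.40 to 0.20) with all libraries and −0.26 (−1.06 to 0.54) without CD8+ WT replicate 1, its highest library.

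In CD4+ TILs the intervals were wide with all libraries, from −3.30 to 3.01 for *Klrd1* and from −2.84 to 5.55 for *Klre1*. Without the 2 CD4+ libraries with few genes detected they narrowed, and the log2 fold changes ranged from −0.28 (*Klrb1c*) to 1.35 (*Klre1*), with 0 of 10 members called, where 0.0374% of 16034 genes were. *Klrk1* then stood at −0.0039 (−0.59 to 0.59), *Klrd1* at 0.08 (−0.47 to 0.62), *Klrg1* at −0.14 (−0.72 to 0.45) and *Klrc1* at 0.32 (−0.42 to 1.06). The value of 1.01 for *Klrk1* with all libraries rested on CD4+ *Sirt2*-/- replicate 4 and CD4+ WT replicate 1. That of 1.21 for *Klra7* rested on CD4+ *Sirt2*-/- replicate 4 (42.7 CPM), and *Klra7* was at 0.11 without both libraries. Its level in CD4+ WT replicate 1 (6.82 CPM) lay near those in CD4+ WT replicates 2 to 4 (7.89, 6.95 and 10.7 CPM). *Klre1* did not pass with either set (1.35 in both, SE 1.89 and 0.75, adjusted p = 1 and 0.99), and its value ranged from 0.11, without CD4+ *Sirt2*-/- replicate 3, to 1.93 when single libraries were left out. Its CD4+ *Sirt2*-/- replicates 1 to 3 measured 0.845, 2.88 and 8.14 CPM, against 2.31, 1.75 and 0.526 CPM in CD4+ WT replicates 2 to 4. Beside these, the genes of γδ and NKT cells on the list used here summed to 79.1 to 174 CPM in CD4+ *Sirt2*-/- libraries and 20.4 to 40.9 CPM in CD4+ WT libraries. *Trdc*, the constant region of the TCR δ chain, measured 23.3 to 43.9 CPM in the former and 1.36 to 9.53 CPM in the latter (log2 fold change 2.74, SE 0.81, adjusted p = 1, and 2.19, adjusted p = 0.178, without the 2 libraries). *Cd163l1*, a scavenger receptor gene of γδ T cells, was the 1 gene of the list called higher in *Sirt2*-/- CD4+ TILs, and only without the 2 libraries (2.82, SE 0.30, adjusted p = 0.00336). *Cd8a* measured 10.3, 11.7 and 34.6 CPM in CD4+ *Sirt2*-/- replicates 1 to 3, and 9.53, 3.04 and 7.885 CPM in CD4+ WT replicates 2 to 4. All 9 NK cell markers tested in CD4+ TILs without the 2 libraries had a log2 fold change above 0, and 0 were called. Their median was 0.83, against −0.0016 over all genes tested. The part of γδ, NKT, NK or CD8+ cells in the receptor values was not tested.

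The genotype effect was then compared between the cell types. With all 16 libraries 0 of 10 members, and 0 of 17270 genes (0%), passed for the difference (342 genes and 0 members had an unadjusted p under 0.05, and DESeq2 called 2 genes), and without the 3 libraries 0 of 10 and 0 of 17993 (664 genes and 0 members with an unadjusted p under 0.05) did. The differences, CD8+ effect minus CD4+ effect, ranged from −1.52 (*Klra7*, SE 0.81) to 0.09 (*Klrb1c*, SE 1.75) on the log2 scale with all libraries, and from −1.45 (*Klre1*, SE 0.89) to 0.03 (*Klri2*, SE 0.76) without the 3. The difference is the same whether it is read as the genotype effect in 2 cell types or as the cell type effect in 2 genotypes, so the larger number of receptors called between cell types in WT mice than in *Sirt2*-/- mice is not shown to be a difference between genotypes.

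**Figure D4:**
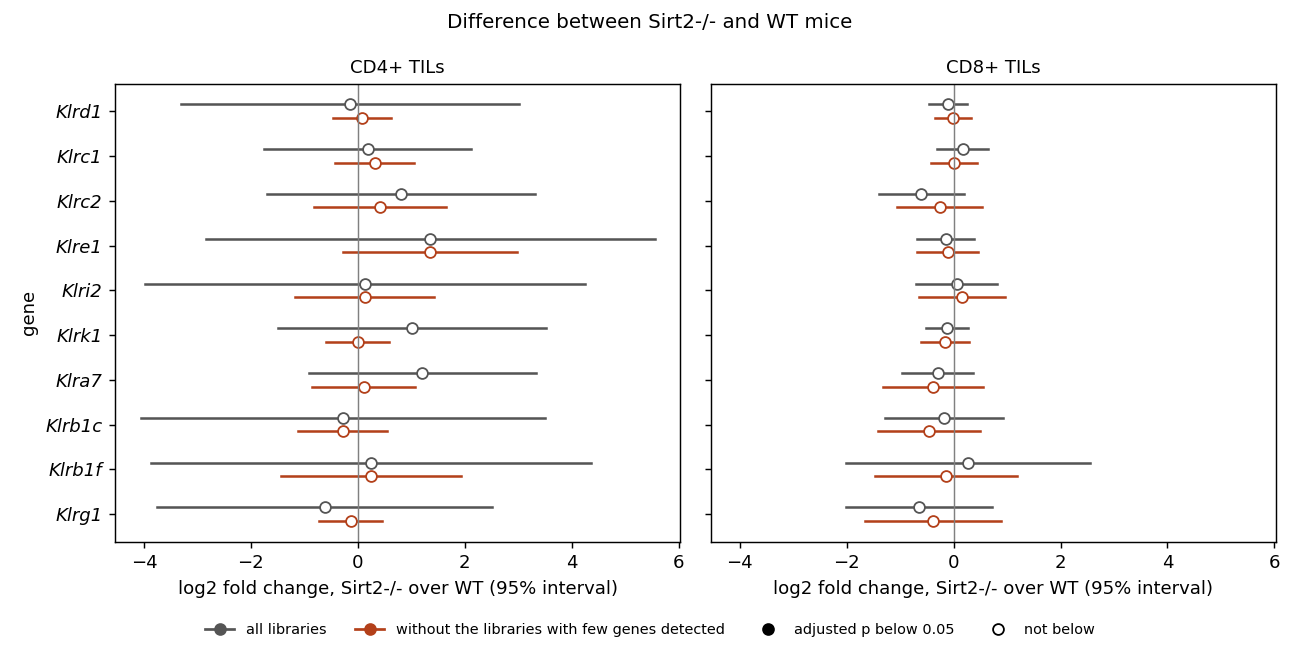
Log2 fold change of each gene in *Sirt2*-/- over WT TILs with its 95% interval from edgeR, for CD4+ TILs (left) and CD8+ TILs (right), with all libraries (grey) and without the 3 low-detection libraries (red). All points are open (adjusted p not below 0.05), all intervals include 0, and in CD4+ TILs the grey intervals are wider than the red ones.

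Other *Klr* genes that passed the filter on low counts mostly leaned the same way between cell types. Of 19 other *Klr* genes in the table, 10 passed the filter on low counts in WT mice and 2 were called higher in CD8+ TILs, *Klrc3* (log2 fold change 5.16, SE 1.39, adjusted p = 0.0345) and *Klra13-ps* (5.29, SE 0.97, adjusted p = 0.00492). *Klrc3* encodes NKG2E and shares 100-base stretches with *Klrc2*, and *Klra13-ps* is an annotated pseudogene that shares sequence with *Klra7*. A gene low in CD4+ TILs can pass the filter through CD8+ TILs alone. *Klrc3* averaged 0.116 CPM in CD4+ and 3.48 CPM in CD8+ WT TILs without the 3 libraries. For such genes the filter fixed the direction, so their calls are no support for a lean of the family. Without the 3 libraries 6 of 11 were higher and 0 lower in WT mice, and 4 of 11 higher and 0 lower in *Sirt2*-/- mice. *Klra1* and *Klra3*, which encode Ly49A and Ly49C, were among them in both genotypes (2.76 and 3.05 in WT, 1.76 and 2.30 in *Sirt2*-/- mice, adjusted p from 0.000112 to 0.0269). With all libraries 0 of 10 passed in *Sirt2*-/- mice (2 had an unadjusted p under 0.05, both higher). Over all genes tested in WT mice, 4.89% were called higher and 6.96% lower, and 14.9% and 13.1% without the 3 libraries. In *Sirt2*-/- mice the shares were 0.918% and 1.32%, and 13.8% and 11.6% without CD4+ replicate 4. The same shares stand beside the counts of the lists that follow. List counts at an unadjusted p under 0.05 in *Sirt2*-/- mice with all libraries stand beside 1842 of 15787 genes. The sum over the 19 genes was 35.3 to 104 CPM in CD8+ and 0.0481 to 33.1 CPM in CD4+ libraries. In the 3 low-detection libraries 10 to 17 of the 19 genes were at 0.

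The adaptors of the receptors encoded by *Klrk1* and *Klrc2* were unequal in level. *Hcst* (DAP10) measured 13.3 to 16.7 CPM in CD8+ WT, 10.5 to 19.5 CPM in CD8+ *Sirt2*-/-, 8.86 to 14.6 CPM in CD4+ WT and 0 to 8.21 CPM in CD4+ *Sirt2*-/- libraries. *Tyrobp* (DAP12), the adaptor of NKG2C, stayed between 0 and 2.95 CPM in all 16 libraries and did not pass in any comparison. Of 10 signaling partners, 2 were called higher in CD8+ WT TILs and 0 lower. These were *Ptpn6*, the phosphatase SHP-1 recruited by the inhibitory members (log2 fold change 1.11, SE 0.18, adjusted p = 0.00229), and *Lck* (0.41, SE 0.11, adjusted p = 0.0372). In *Sirt2*-/- mice 0 of 10 were called with all libraries (2 had an unadjusted p under 0.05), and 3 without CD4+ replicate 4: *Ptpn6* (1.10, adjusted p = 0.000121), *Lck* (0.56, adjusted p = 0.00316) and *Hcst* (1.09, adjusted p = 0.00497).

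Ligands of these receptors were also read in the T cells themselves. Of 15 ligand genes 7 passed the filter in WT mice, with 2 higher and 2 lower in CD8+ TILs. *Cdh1* encodes E-cadherin, a ligand of KLRG1, and was higher in CD8+ TILs (log2 fold change 3.15, SE 0.24, adjusted p = 2.2e-05), the direction opposite to *Klrg1*. It measured 156 ± 12.04 CPM in CD8+ WT and 16.7 ± 5.01 CPM in CD4+ WT TILs without the 3 libraries (SD, n = 3). *Ulbp1*, a ligand of NKG2D, was higher as well (1.53, SE 0.24, adjusted p = 0.00189). *Clec2d*, a ligand of NKR-P1 receptors, and *H2-D1*, a ligand of Ly49 receptors, were lower (−0.83 and −0.54, adjusted p = 0.00207 and 0.00675). Among *Sirt2*-/- libraries 0 of 8 ligand genes passed with all libraries (3 had an unadjusted p under 0.05), and without CD4+ replicate 4 *Cdh1* (3.25, adjusted p = 1.45e-05) and *Ulbp1* (1.33, adjusted p = 0.00453) were higher while *H2-D1* (−0.38, adjusted p = 0.0156) and *Clec2d* (−0.69, adjusted p = 0.00854) were lower.

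Regulators and effectors of the cytotoxic program were called in part. Of 12 such genes, 11 passed the filter in WT mice, with 5 called higher in CD8+ TILs, 1 lower and 5 not called, and without the 3 libraries 9 of 12 were higher and 1 lower. *Eomes*, a T-box factor of memory and cytotoxic T cells, had a log2 fold change of 3.48 (SE 0.28, adjusted p = 3.9e-05). *Id2* (1.23, SE 0.16, adjusted p = 0.000593) and *Prf1*, which encodes perforin (3.71, SE 0.85, adjusted p = 0.0157), were higher too. *Prdm1*, which encodes BLIMP-1, was lower (−1.44, SE 0.25, adjusted p = 0.00371). With all libraries in *Sirt2*-/- mice *Eomes* (3.58), *Id2* (1.45) and *Prf1* (3.01) were the 3 called of 11, with adjusted p of 0.00484, 0.0197 and 0.00963, and without CD4+ replicate 4 the counts were 6 higher and 1 lower of 12. Some NK cell markers moved with the receptors. In WT mice 2 of 8 tested were higher and 0 lower in CD8+ TILs, *Cd244a* (4.71, adjusted p = 0.00042) and *Txk* (1.37, adjusted p = 0.000933), and without the 3 libraries 5 of 10 were higher and 0 lower. Among *Sirt2*-/- libraries 1 of 9 was higher (*Txk*, 0.84, adjusted p = 0.0414), and without CD4+ replicate 4 it was 3 higher (*Cd244a*, *Txk* and *Kit*) and 1 lower (*Itga2*, −1.17) of 10. The 11 listed genes summed to 196 to 297 CPM in CD8+ and 67.0 to 128 CPM in CD4+ libraries. *Ncr1* was at 0 in CD8+ WT replicate 1, CD4+ WT replicate 1 and CD4+ *Sirt2*-/- replicate 4, and *Itga2* measured 1.95 to 9.86 CPM in CD8+ and 6.52 to 23.7 CPM in CD4+ libraries. The part of NK cells in the receptor values was not tested. Of the γδ and NKT genes, 1 of 7 was higher in CD8+ WT TILs (*Tcrg-C2*, log2 fold change 3.25), and 0 of 8 passed in *Sirt2*-/- mice (1 higher and 3 lower at an unadjusted p under 0.05). Without the 3 libraries 3 were higher and 2 lower of 7 in WT mice, and 1 was higher and 3 lower of 8 in *Sirt2*-/- mice. *Tcrg-C2* was higher (4.27 and 3.39) and *Trdv4* (−3.03 and −3.46) and *Zbtb16* (−3.30 and −2.84) were lower in both. Myeloid, melanoma and B cell markers summed to at most 34.4, 90.4 and 6.39 CPM in any library, and 0 of the 3, 2 and 1 tested passed in WT mice.

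Over the 16 libraries, the genes whose log2 CPM followed *Klrd1* most closely were *Nedd4*, *Setbp1*, *Cdh1*, *Itga1* and *Nkg7* (Pearson r from 0.987 to 0.994), and those closest to *Klrg1* were *Plcl1*, *Pcdhgb7*, *Ramp1*, *Erc1* and *Serinc5* (r from 0.955 to 0.964). Over the 13 libraries left without those of few genes detected, 0 of the 5 stayed among the closest to *Klrd1* and 1 of the 5, *Pcdhgb7*, among those closest to *Klrg1*. These correlations are a description: the points share cell type and depth. With group means taken out over those 13 libraries, *Klrk1* and *Klri2* (r = 0.88), *Klrc2* and *Klrk1* (r = 0.87) and *Klrd1* and *Klrk1* (r = 0.84) varied together from library to library, and *Klrg1* and *Klrd1* did not (r = −0.20).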

How the data were processed

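Total RNA of CD4+ and CD8+ TILs was sequenced by the authors as pairs of 100-base reads (strand-specific kit). The authors deposited 1 table of raw counts per gene, whole numbers with no normalization; the submitters' processing notes name STAR, HTSeq and mm10, with versions, counting strand and treatment of multiply placed reads not given in the sources used here. All 55450 identifiers matched GENCODE mouse release 21 (GRCm38). Groups came from the labels.

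Tests were run with edgeR 4.0.16 under R 4.3.3 (filterByExpr, TMM, robust quasi-likelihood test, two-sided, Benjamini-Hochberg adjustment over all genes tested, threshold 0.05), with the compared groups in each fit and all 16 libraries for the difference between cell types. DESeq2 1.42.0 and limma 3.58.1 (voom with sample quality weights) were alternatives, as were other size factors, filters, the model of all groups, the replicate number as a block and leaving out libraries. Libraries with fewer than 15000 genes detected were set aside in the alternative named beside each result. CPM scales each count by the library's total count, and likeness used log2 CPM with a prior count of 2. Totals of 28000949 to 62407851 counts put the floor of 3 counts at 0.0481 to 0.107 CPM. Reads carry no molecular identifiers, so floors cover counting error only. No 2 libraries held identical counts. The fits were tested on simulated counts with the same spread for all genes and no library of few genes detected. That test does not cover fits that hold such libraries.

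The members and the lists (other *Klr* genes, signaling partners, ligands, effector regulators, and markers of NK, γδ and NKT, T lineage, regulatory T, myeloid, melanoma and B cells) were chosen with earlier results of these data known. All 10 members are named in each comparison. Of each list, at most 4 called genes with the smallest p are named, besides defining markers, adaptors, *Sirt2*, and the 5 genes most correlated with *Klrd1* and with *Klrg1*. Promoters came from the RefSeq table, coding sequences from GENCODE transcripts.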

Additional observations from a re-analysis of the deposited data

Results flagged for a closer look

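In 3 of 40 groups of 4 libraries, 1 library stood apart from the other libraries of its group beyond Dixon's 95% critical value, where chance gives about 1 group in 20. *Klrc2* measured 7.21 CPM in CD4+ WT replicate 1, a library with few genes detected, against 2.23 to 2.72 CPM in the other CD4+ WT libraries. *Klrb1c* measured 11.4 CPM in CD8+ *Sirt2*-/- replicate 4, against 3.20 to 4.39 CPM in the other CD8+ *Sirt2*-/- libraries. *Klrb1f* measured 4.38 CPM in CD4+ WT replicate 3, against 0 to 0.584 CPM in the other CD4+ WT libraries. The causes were not tested.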

How the results depend on the processing

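Between cell types, no member changed direction in *Sirt2*-/- mice under the settings of the main list of alternatives, and *Klrb1f* did in WT mice in the range without 1 library each (−1.82 to 0.65). In WT mice the members called higher numbered 5 and those lower 1, with ranges of 5 to 7 and 0 to 1 without 1 library each, and 3 and 0 in the model of all 16 libraries (*Klrg1*, *Klrd1* and *Klre1* lost). Genes called in WT mice numbered 2651 by DESeq2, 5481 by limma-voom, 811 in the model of all 16 libraries and 4394 without the 3 low-detection libraries, against 1765, and 1022 to 2767 without 1 library each. In *Sirt2*-/- mice the members called higher, 1 in the fit reported first, numbered 2 by DESeq2, 6 by limma-voom, 2 with at least 10 counts in every library, 0 with the replicate block and 6 without CD4+ replicate 4, and 0 to 6 without 1 library each. Members called lower there numbered 2 by limma-voom and 1 without CD4+ replicate 4, with 0 to 1 without 1 library each. Genes called there numbered 1339 by DESeq2, 4474 by limma-voom, 907 with at least 10 counts, 781 in the model of all 16 libraries, 108 with the replicate block and 4250 without CD4+ replicate 4, against 354, and 111 to 4250 without 1 library each.

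Between genotypes 0 members were called under any alternative. Genes called numbered 7 by DESeq2, 4 by limma-voom and 6 without the few-gene libraries in CD4+ TILs, and 28 by DESeq2, 4 by limma-voom, 5 with no filter, 4 with the replicate block and 7 without the few-gene library in CD8+ TILs, where leaving out 1 library each gave 0 to 7. For the difference between cell types DESeq2 called 2 genes.

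Log2 fold changes near 0 changed sign. In CD4+ TILs *Klrd1* was 0.16 by limma-voom and 0.0784 without the few-gene libraries, *Klrk1* −0.0039 without them and *Klrc1* −0.0765 with the replicate block. Ranges without 1 library each were −0.70 to 0.13 for *Klrb1c*, −0.17 to 2.04 for *Klrb1f*, −0.33 to 0.52 for *Klrc1*, −0.0562 to 1.29 for *Klrc2*, −0.42 to 0.27 for *Klrd1* and −0.64 to 0.55 for *Klri2*. In CD8+ TILs *Klrd1* was 0.0862 and *Klrb1f* −0.14 by limma-voom, *Klrb1f* −0.14 without the few-gene library and *Klri2* −0.0477 with the block. Ranges there were −0.80 to 0.0334 for *Klrb1c*, −0.14 to 1.04 for *Klrb1f*, −0.36 to 0.0511 for *Klre1*, −0.20 to 0.28 for *Klri2* and −0.30 to 0.031 for *Klrk1*. For the difference between cell types, limma-voom gave −0.0818 for *Klrd1*, −0.46 for *Klrb1c* and −0.73 for *Klrb1f*, no filter −0.0014 for *Klrb1f*, and at least 10 counts 0.0116 for *Klrc1*. The replicate block gave 0.96 for *Klrg1*, 0.27 for *Klrc1*, −0.66 for *Klrb1c*, −0.33 for *Klrb1f* and 0.40 for *Klri2*. Without the 3 libraries *Klrd1* was −0.0892, *Klrb1c* −0.18, *Klrb1f* −0.40 and *Klri2* 0.0272. Ranges without 1 library each were −0.51 to 0.50 for *Klrb1c*, −1.76 to 0.78 for *Klrb1f*, −0.35 to 0.51 for *Klrc1*, −0.36 to 0.33 for *Klrd1*, −0.43 to 0.44 for *Klrg1* and −0.46 to 0.70 for *Klri2*. The causes were not tested.

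Libraries of the same replicate number share only a number in the labels. Correlations of their deviations from the group means ranged from 0.07 to 0.12 between cell types in WT mice and from −0.01 to 0.13 in *Sirt2*-/- mice, and from −0.07 to 0.07 and −0.05 to 0.03 between genotypes in CD4+ and CD8+ TILs. In WT mice every sample correlated best with its own number across cell types, 4 of 4, a hint from the data and not the design. Without the 3 libraries and 1 further library each, chosen after seeing the data, WT mice kept 7 members higher and 1 lower in all 6 fits, and *Sirt2*-/- mice gave 5 to 6 higher and 1 to 2 lower over 7 fits, where *Klrb1c* ranged from −0.14 to 0.70. *Klrb1f* in WT mice ranged from −1.64 to 0.57.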
